A study of Homo sapiens with 8 samples.

Results

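The histone genes were taken as the gene probes named with the prefixes HIST1H, HIST2H, HIST3H, HIST4H, H1F, H2AF or H3F, a choice by name that used no measured value. This gave 100 probes of 82 genes, of 34127 probes and 27274 gene names on the array. By prefix, 68 of them (80 probes) are replication-dependent genes and 14 (20 probes) are variant genes. The replication-dependent genes hold 6 genes of H1, 15 of H2A, 19 of H2B, 13 of H3 and 15 of H4, and the variants hold 4 of H1, 8 of H2A and 2 of H3. Gene names are those of the array, and the current symbol is given where it helps.

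RNA of the established human pancreatic cancer cell lines Capan-1, which comes from a liver metastasis, and MIA PaCa-2 was hybridized to one-color arrays of 60-base probes. Each line has 2 arrays of cells given siRNA against HOXB7 at 10 nM for 48 hours and 2 arrays of untransfected parental cells, so 8 arrays in 4 groups, and no array of scrambled siRNA is among them. Each line was hybridized on a slide of its own, and in both slides the siRNA arrays lay on the same positions, so slide and cell line, and position and treatment, cannot be told apart. The labels do not say whether the 2 arrays of a group came from separate cultures, and p-values then measure the spread between these arrays only. Levels are log2 intensities relative to the 75th percentile of the gene probes on the same array, so a value of 0 is that percentile and a difference of 1 is a doubling. Levels are compared within a probe only, since probes differ in brightness for reasons other than the RNA.

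Core histones H2A, H2B, H3 and H4 form the octamer around which DNA is wound, and H1 binds the linker DNA between octamers. Replication-dependent histone genes lie in clusters, the largest on chromosome 6 (HIST1) and others on chromosome 1 (HIST2, HIST3), and are transcribed mainly in S phase, when new DNA must be packed. Their mature mRNAs have no poly(A) tail and end just after a conserved stem-loop bound by SLBP, whereas variant histone genes are mostly single genes with polyadenylated mRNAs made through the whole cell cycle. The labeling used here starts from an oligo-dT primer, which anneals to poly(A), and its part in the levels below was not tested.

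The stem-loop shows where a probe lies relative to the usual end of the mRNA. The complete motif was found in 6 of the 100 histone probes, and in 7 of all probes on the array. Its windows in the H2B probes are shown because these probes differed from most other H2B probes between the lines. Each window is the last 30 bases of the probe on the mRNA strand, 5′ to 3′, with the stem-loop in capitals.
HIST1H2BE: aaacccaaaGGCTCTTTTCAGAGCCactca
HIST1H2BF: acccaatcccaaaGGCTCTTTTAAGAGCCa
In an H4 probe the stem pairs through other bases.
HIST1H4K: ctatcaacaaaaGGCCCTTTTTAGGGCCcc

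Histone genes of a class are much alike, and so are the probes designed to them. Of probe pairs from different histone genes, 18 had at least 45 of 60 bases identical, the highest being 53, and all 18 lay within a class. The H2B probes below are shown for a run of 13 bases that all 4 share, in capitals. The HIST1H2BD and HIST1H2BK probes had 51 identical bases. Cross-hybridization between such probes was not tested, and the values of one class are not independent measurements.
HIST1H2BC: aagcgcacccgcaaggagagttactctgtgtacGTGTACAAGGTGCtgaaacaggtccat
HIST1H2BD: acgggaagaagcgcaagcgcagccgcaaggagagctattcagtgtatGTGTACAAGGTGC
HIST1H2BG: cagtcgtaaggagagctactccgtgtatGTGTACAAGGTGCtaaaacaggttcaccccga
HIST1H2BK: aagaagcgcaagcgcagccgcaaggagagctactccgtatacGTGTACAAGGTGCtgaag

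The targeted gene was checked first. HOXB7 was at −4.82 and −4.09 on the parental and −7.76 and −7.78 on the siRNA arrays of MIA PaCa-2, where it was not well above background. In Capan-1 it was at −2.48 and −2.34 in parental and −5.26 and −4.80 in siRNA cells. It was lower in MIA PaCa-2 (adjusted p = 0.0129, limma with Benjamini-Hochberg adjustment; 0.596 with normexp) and did not pass the threshold of 0.05 in Capan-1 (adjusted p = 0.0892). The software called 69.2% to 74.3% of the spots of an array well above background, and no spot was saturated. Of the 8 epithelial markers, EPCAM and CDH1 had signal well above background on the 4 Capan-1 arrays and on no array of MIA PaCa-2. KRT7, KRT8, KRT18, KRT19, SOX9 and MUC1 had it on all 8 arrays. KRT18 was at 7.50 and 7.68 in parental MIA PaCa-2 and at 7.82 and 7.77 in parental Capan-1. Between the parental lines, 7 of the 8 were lower in MIA PaCa-2 and 0 higher. Of 4 mesenchymal markers, VIM and ZEB1 were higher in parental MIA PaCa-2 than in parental Capan-1 and CDH2 and FN1 were lower. Of markers of other cell types, LUM and PDGFRB of the 5 fibroblast genes were above background on none of the arrays, COL1A1, COL1A2 and DCN on 7 of 8 each, and COL1A2 was at 3.79 and 3.87 in parental MIA PaCa-2. All 5 leukocyte markers and VWF and CDH5 of the 3 endothelial ones were above it on all 8, CD14 at 1.87 and 1.81 in parental MIA PaCa-2 and at −2.41 and −2.30 in parental Capan-1. The part of other cell types in the histone levels was not tested.

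Most histone genes were detected. Of the 82 genes, 73 had a probe well above background on all 8 arrays, 5 on some arrays and 4 on none. The 4 were HIST1H1T and HIST1H2BA, both known from the testis, HIST2H2BA, whose current name (H2BP1) marks a pseudogene, and H2AFB3. For the gene values below, a gene is given by its brightest probe, the one with the highest mean over the 8 arrays, and the call of a gene is lower or higher if some probe of it passed the test that way and no probe passed the opposite way.

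After HOXB7 siRNA in MIA PaCa-2, 1 of 76 histone genes tested was lower and 0 were higher. Of all genes, 1.63% were lower and 1.6% higher. Unadjusted p-values under 0.05 were found for 6 histone genes with a lower and 1 with a higher level of 76, beside 10.6% and 11% of all genes. The gene past the threshold was HIST3H2A (now H2AC25), an H2A gene of the small HIST3 cluster on chromosome 1 (probe at chr1:226712106-226712165, build hg18). It was at −3.16 and −3.28 on the parental arrays and at −3.95 and −3.98 on the siRNA arrays, so the groups did not overlap. The difference was −0.74 ± 0.09 (SE, n = 2 against 2; adjusted p = 0.0253, limma). The call was lost when any 1 of the 8 arrays was left out (adjusted p = 0.0548 to 0.0893), and with normexp background correction the difference was −0.07 (adjusted p = 0.628). In Capan-1 HIST3H2A was at −2.30 and −2.42 in parental and −2.68 and −2.56 in siRNA cells. This difference of −0.26 ± 0.09 was in the same direction but did not pass (adjusted p = 0.337), nor did the difference between the responses (−0.49, 95% interval −0.81 to −0.16, adjusted p = 0.303).

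HIST3H2A stands head to head with HIST3H2BB, an H2B gene read in the opposite direction, and the stretch between both starts is shown because 1 gene of the pair passed the test and the other did not. HIST3H2BB was at −2.10 and −2.03 in parental and −1.85 and −1.99 in siRNA MIA PaCa-2 cells, a difference of 0.15 ± 0.10 (adjusted p = 0.459, limma). The stretch lies at chr1:228457874-228458102 (RefSeq, GRCh38.p14, plus strand, reading toward HIST3H2BB), which is another build than that of the probe coordinates. Matches to CCAAT on either strand are in capitals. The stretch holds 3 of them and no match to ATTTGCAT or TATAAA.
HIST3H2A/HIST3H2BB: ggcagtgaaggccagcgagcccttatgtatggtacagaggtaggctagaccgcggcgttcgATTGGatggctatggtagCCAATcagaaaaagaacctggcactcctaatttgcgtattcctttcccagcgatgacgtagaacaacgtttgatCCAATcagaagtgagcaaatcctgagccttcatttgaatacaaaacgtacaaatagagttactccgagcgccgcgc

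The other histone genes of MIA PaCa-2 moved little. Over the 63 replication-dependent genes well above background on its 4 arrays, the median difference was 0.02, beside 0.01 for all 18161 genes with such signal, and over 13 variant genes it was −0.10. Among H2A genes, 12 of 15 were below 0, and among H3 genes 10 of 13 were above 0. The largest falls after HIST3H2A with non-overlapping arrays were those of HIST1H2BK and HIST2H2AA4. HIST1H2BK (H2BC12), an H2B gene, was at 1.16 and 1.02 in parental and 0.73 and 0.43 in siRNA cells (−0.50 ± 0.13, adjusted p = 0.0976). Its other probe gave −0.04 ± 0.08 (adjusted p = 0.805). HIST2H2AA4, an H2A gene of chromosome 1, was at −0.99 and −1.12 in parental and −1.37 and −1.65 in siRNA cells (−0.45 ± 0.13, adjusted p = 0.119). HIST1H1C (H1-2), a linker histone, went from 3.27 on both parental arrays to 2.92 and 2.79 (−0.42 ± 0.10, adjusted p = 0.0938). The largest rises were 0.28 ± 0.10 for HIST1H2BN, 0.23 ± 0.10 for HIST1H3J and 0.21 ± 0.21 for HIST1H2AL, an H2B, an H3 and an H2A gene, with adjusted p of 0.197, 0.262 and 0.615 (limma). HIST1H2AL had an interval of −0.30 to 0.73.

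In MIA PaCa-2, 13 of 63 replication-dependent and 5 of 13 variant genes had both siRNA values under both parental values, and 12 and 1 had them over both. Over all genes with signal, 24.4% lay below and 27.3% above. The replication-dependent genes of all classes, with 20.6% and 19.0%, lay under both of these shares, but the classes differed. Of 15 H2A genes 8 lay below (53.3%) and 2 above, and of 13 H3 genes 0 lay below and 5 above (38.5%). Of 17 H2B genes 2 lay below and 3 above, of 14 H4 genes 1 and 2, and of 4 H1 genes 2 and 0. The H2A and H3 shares depended on the background correction. With normexp, 5 of 15 H2A genes lay below (33.3%), against 19.8% of all genes, and 2 above. Of 13 H3 genes, 0 lay below and 2 above (15.4%) with normexp, against 34.0% of all genes above.

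In Capan-1, 0 of 73 histone genes tested passed the threshold in either direction with limma (smallest adjusted p = 0.223), beside 0.0% of all genes lower and 0.0053% higher. Unadjusted p-values under 0.05 were found for 2 histone genes with a lower and 13 with a higher level of 73, beside 6.99% and 6.07% of all genes, all 13 being replication-dependent. Yet the replication-dependent genes lay on one side of 0. Of 62 well above background on the 4 Capan-1 arrays, 59 were above 0 and 3 below, with a median of 0.20, beside a median of 0.0026 over 18178 genes. The medians were 0.23 for H2A, 0.19 for H2B, 0.15 for H3 and 0.29 for H4, with all 13 H3 and all 13 H4 genes above 0, and 0.16 over 4 H1 genes. In 43 of these 62 genes (69.4%) both siRNA values were over both parental values, against 27.6% of all genes, and in 2 they were under both, against 26.8%. Of 11 variant genes, 2 were over and 2 under, with a median of 0.014.

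The median level over the 62 genes was 2.28 and 2.03 on the parental arrays of Capan-1 and 2.49 and 2.40 on its siRNA arrays, so the second parental array was the lowest. Without that array the median difference was 0.11, and both siRNA arrays lay over the remaining parental array for 43 genes, against 37.0% of all genes, and under it for 5, against 36.8%, where leaving out an array can only keep or raise these counts. Without scaling between arrays the median was 0.047, where the median of all genes shifted by −0.16, and the siRNA arrays lay above the parental arrays for 18 genes (29.0%), against 5.15% of all genes. With normexp background correction they lay above for 34 genes (54.8%), against 33.3% of all genes. With quantile scaling they did for 37 genes (59.7%), against 26.2%.

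The largest rises in Capan-1 by the brightest probe with non-overlapping arrays, none past the threshold, were those of HIST2H3A, HIST1H4K and HIST4H4. HIST2H3A, an H3 gene whose probe holds the stem-loop, was at 3.01 and 2.42 in parental and 3.30 and 3.03 in siRNA cells (0.45 ± 0.25, adjusted p = 0.484). HIST1H4K, at the probe without the stem-loop, was at 3.63 and 3.15 in parental and 3.78 and 3.71 in siRNA cells (0.36 ± 0.17, adjusted p = 0.426). HIST4H4, the single H4 gene of chromosome 12, was at −4.68 and −5.02 in parental and −4.64 and −4.39 in siRNA cells (0.33 ± 0.22, adjusted p = 0.552). In each of the 3 genes the second parental array was the lowest. The largest falls were those of H1FNT, HIST3H2A and H2AFY2. H1FNT, a linker histone known from sperm formation, was at −3.67 and −3.66 in parental and −4.50 and −4.07 in siRNA cells (−0.62 ± 0.14, adjusted p = 0.223). H2AFY2 (macroH2A2) was at −0.21 and −0.07 in parental and −0.50 and −0.23 in siRNA cells (−0.22 ± 0.13, adjusted p = 0.512).

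**Figure D1:**
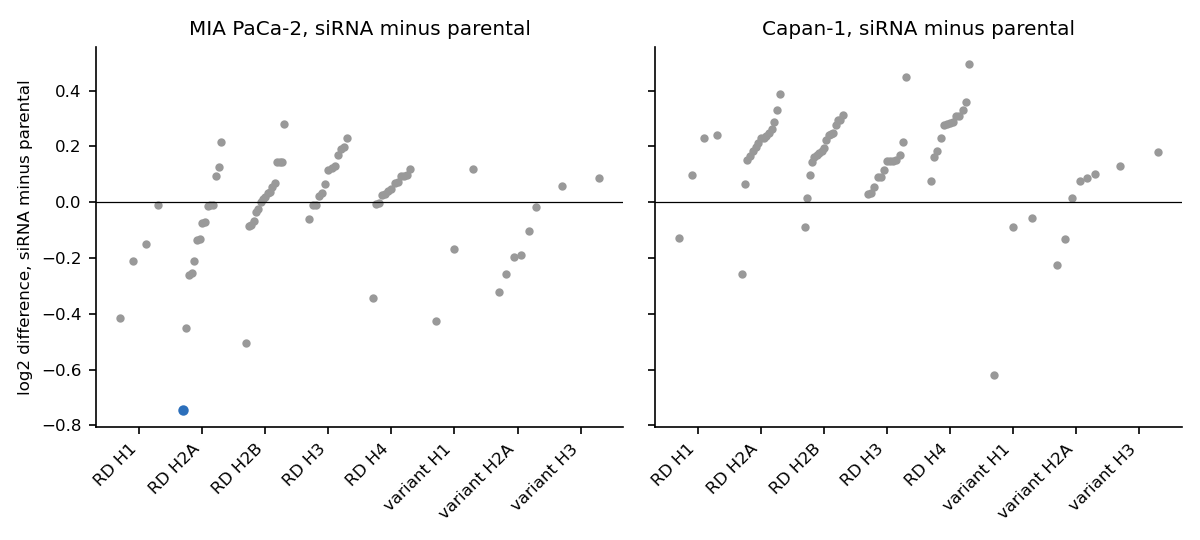
Log2 difference of siRNA-treated minus parental cells for histone genes well above background on all 8 arrays, by class, in MIA PaCa-2 (left) and Capan-1 (right). Each point is a gene by its brightest probe, RD stands for replication-dependent, gray points did not pass the threshold and the blue point is HIST3H2A; in Capan-1 59 of 62 replication-dependent genes lie above 0.

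The responses of the lines were compared directly. Of 76 histone genes tested, 0 passed the threshold for the difference of the responses with limma (smallest adjusted p = 0.231), beside 0.00486% of all genes lower and 0.00486% higher. Unadjusted p-values under 0.05 were found for 11 genes with a lower and 1 with a higher response in MIA PaCa-2, beside 5.09% and 6.17% of all genes. The half-width of the 95% interval had a median of 0.38 over these genes, and for 64 of 76 the interval lay within 1 of 0, so that a difference of more than a doubling was outside it. The intervals of the single lines had a median half-width of 0.27 for MIA PaCa-2 and 0.26 for Capan-1.

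Between the parental lines, histone genes differed widely, and H2B stood on the other side of 0 from H3 and H4. Of 76 histone genes tested, 23 were lower in MIA PaCa-2 and 32 higher, and 1 had probes past the threshold both ways. Of all genes, 31.9% were lower and 40.2% higher, so a call by itself is common in this comparison, and the description rests on sizes and on classes. Of 17 H2B genes tested, 14 were lower in MIA PaCa-2 and 2 higher, with a median difference of −1.46, beside 0.11 over all 16886 genes above background on the 4 parental arrays. Of 15 H2A genes, 6 were lower and 8 higher (median 0.43). None of 13 H3 genes was lower and 5 were higher (median 0.29), and of 14 H4 genes none was lower alone and 7 were higher (median 0.45). Of 4 H1 genes, 1 was lower and 2 were higher. The median over the 62 replication-dependent genes was 0.16 and over 11 variant genes 0.27. Over the alternatives, 13 to 14 H2B genes were lower. With the second Capan-1 or the first MIA PaCa-2 parental array left out, 4 H4 genes and 0 H1 genes were higher, and 1 H2B gene was, as also without the first Capan-1 parental array.

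**Figure D2:**
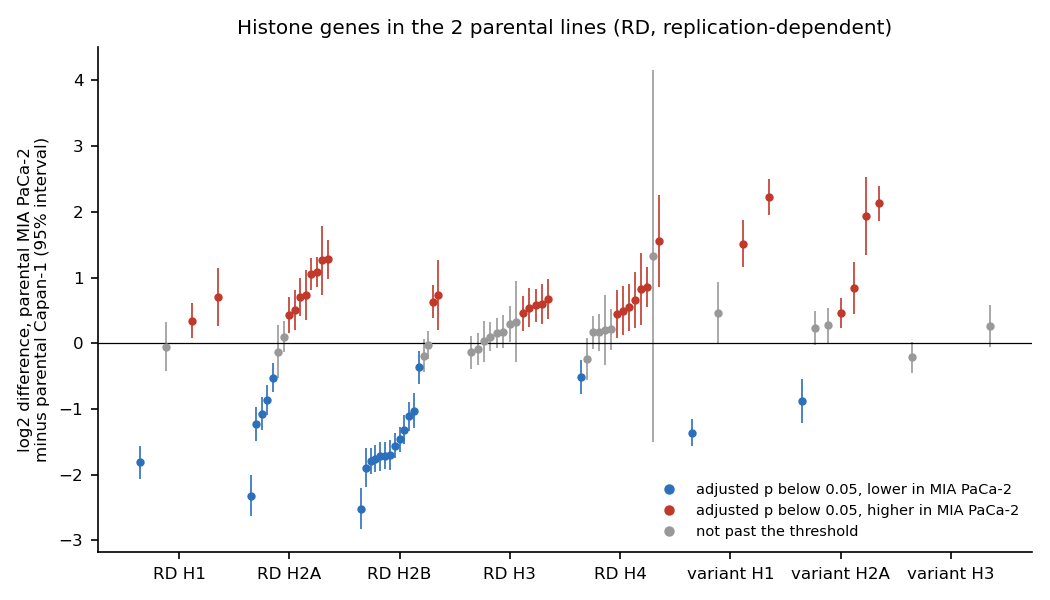
Log2 difference of parental MIA PaCa-2 minus parental Capan-1 for each histone gene tested, by its brightest probe and by class (RD, replication-dependent); bars are 95% intervals from limma, blue and red mark genes past the threshold (lower or higher in MIA PaCa-2) and gray those not past it. Most H2B genes lie between −1 and −2, while the H3 genes lie near or above 0 and H4 genes reach 1.56.

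The largest H2B fall was that of HIST1H2BK, and those of the next 5 genes lay between −1.89 and −1.71. HIST1H2BK was at 1.16 and 1.02 in parental MIA PaCa-2 and at 3.59 and 3.62 in parental Capan-1, a fall by 2.52 on the log2 scale (SE 0.13, 5.72-fold, adjusted p = 1.15e-05, limma). HIST1H2BI was at 1.29 and 1.24 against 3.17 and 3.14 (−1.89 ± 0.12, adjusted p = 2.85e-05). HIST1H2BM was at 1.53 and 1.54 against 3.34 and 3.31 (−1.79 ± 0.08, adjusted p = 7.51e-06). The replicates of each line lay close together beside the gap between lines. HIST1H2BO, HIST1H2BH and HIST1H2BL had differences of −1.76, −1.72 and −1.71 (adjusted p = 8.25e-06, 1.28e-05 and 9.76e-06). HIST1H2BL, the H2B gene with the highest mean signal, was at 2.62 and 2.61 in parental MIA PaCa-2 and 4.34 and 4.31 in parental Capan-1.

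The 4 H2B genes whose probes are printed above fell by like amounts, but this was not particular to them. HIST1H2BM, HIST1H2BO and HIST1H2BL differed by −1.79, −1.76 and −1.71, and other H2B probes were not searched for the run. HIST1H2BC differed by −1.46, HIST1H2BD by −1.70, HIST1H2BG by −1.56 and HIST1H2BK by −1.69 at the probe printed above. The brightest HIST1H2BK probe, which is not printed, differed by −2.52. Both H2B probes that hold the complete stem-loop went the other way. HIST1H2BE was at −0.17 and −0.33 in parental MIA PaCa-2 and −0.82 and −0.94 in parental Capan-1 (0.63 ± 0.10, adjusted p = 0.00198, limma). HIST1H2BF was at −1.12 and −1.53 against −1.97 and −2.15 (0.73 ± 0.22, adjusted p = 0.0225), and this call was lost without either Capan-1 parental array or the first of MIA PaCa-2 (adjusted p = 0.0553 to 0.11). These were the 2 H2B genes higher in MIA PaCa-2. HIST2H2BE and HIST3H2BB, by their brightest probes, differed by −0.03 and −0.19 (adjusted p = 0.801 and 0.145).

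**Figure D3:**
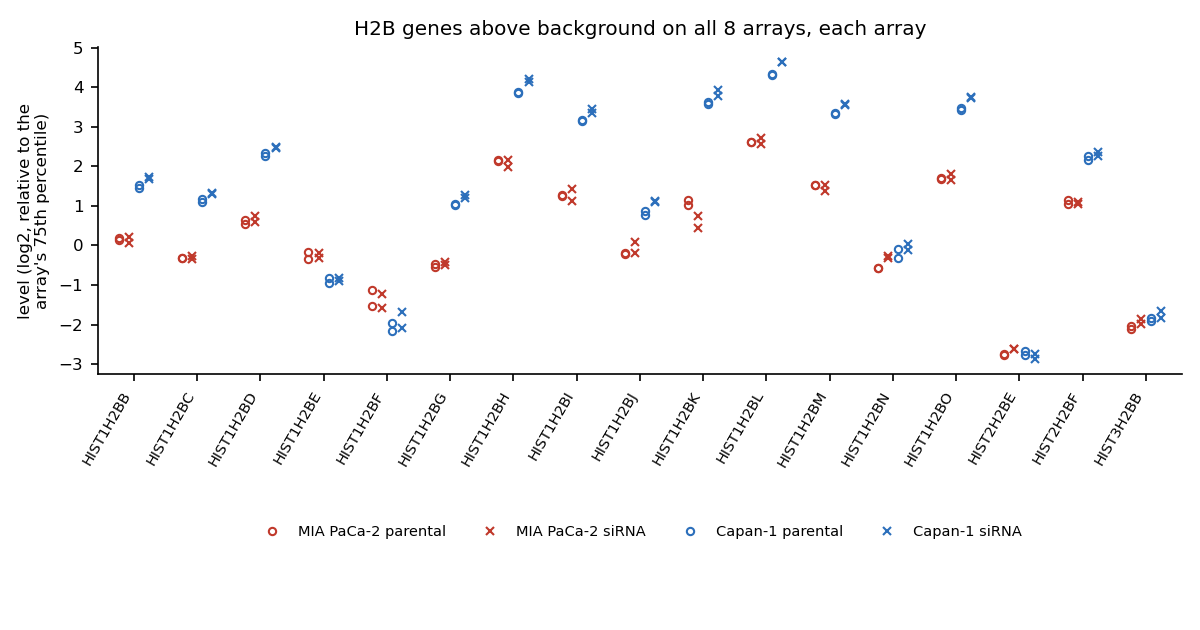
Level of the 17 H2B genes well above background on all 8 arrays, by brightest probe, on each array (log2 relative to the 75th percentile of the array). Circles are parental and crosses siRNA arrays, MIA PaCa-2 in red and Capan-1 in blue; HIST1H2BE and HIST1H2BF are higher in MIA PaCa-2, and in parental cells the other 15 are lower there, HIST2H2BE and HIST3H2BB by the least (−0.03 and −0.19, not past the threshold).

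The H2A genes split. HIST2H2AA4 was at −0.99 and −1.12 in parental MIA PaCa-2 and 1.31 and 1.21 in parental Capan-1 (−2.32 ± 0.13, adjusted p = 1.63e-05, limma), and HIST1H2AE and HIST1H2AD differed by −1.23 and −1.07. HIST1H2AJ, the H2A gene with the highest mean signal, was at 5.47 on both MIA PaCa-2 arrays and at 4.35 and 4.03 on the Capan-1 arrays (1.28 ± 0.12, adjusted p = 0.00016). HIST1H2AL was at −0.49 and −0.74 against −1.62 and −2.13 (1.26 ± 0.21, adjusted p = 0.00227). HIST1H2AH and HIST1H2AK differed by 1.08 and 1.05 (adjusted p = 0.000104 and 0.00016). HIST1H2AK shares 53 of 60 bases with the HIST1H2AD probe, and the 2 genes lay on opposite sides of 0. The HIST1H2AJ probe shares 51 bases with that of HIST1H2AK and 43 with that of HIST1H2AH. These genes lay on the same side of 0. Cross-hybridization was not tested.

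H2A and H2B genes often stand head to head, with their starts 193 to 245 bases apart in the RefSeq annotation. Among the histone genes 10 such pairs were found, with the starts at most 600 bases apart. In 8 of them both genes were past the threshold between the parental lines, in opposite directions in 6 and both lower in 2. Of the 6, 5 had H2A higher and H2B lower in MIA PaCa-2. A call by itself is common here, with 31.9% of all genes lower and 40.2% higher. The calls of HIST2H2BE, in an opposite pair with HIST2H2AC (0.73), and of HIST1H2AC, in a pair with HIST1H2BC where both were lower, come from other probes than the brightest, which did not pass (−0.03 and −0.13, adjusted p = 0.801 and 0.513, limma). For HIST1H2AJ and HIST1H2BM the differences were 1.28 and −1.79, and the stretch between their starts is shown as the pair with the widest gap. It lies at chr6:27814778-27815021 (RefSeq, GRCh38.p14, plus strand, reading toward HIST1H2BM), with matches to CCAAT (5), TATAAA (1) and ATTTGCAT (1) on either strand in capitals.
HIST1H2AJ/HIST1H2BM: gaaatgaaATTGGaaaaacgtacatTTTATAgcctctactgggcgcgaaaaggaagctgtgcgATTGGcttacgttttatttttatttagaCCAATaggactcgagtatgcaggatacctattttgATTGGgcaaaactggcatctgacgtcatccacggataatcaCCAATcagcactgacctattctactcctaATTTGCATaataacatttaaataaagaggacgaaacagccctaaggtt
HIST1H2AK and HIST1H2BN differed by 1.05 and −0.36, and the call of HIST1H2BN (adjusted p = 0.0201) was lost without scaling and without the first Capan-1 or either MIA PaCa-2 parental array. HIST1H2AM and HIST1H2BO differed by 0.70 and −1.76, HIST1H2AI and HIST1H2BL by 0.43 and −1.71, the call of HIST1H2AI being lost likewise without scaling, without either Capan-1 parental array or the first of MIA PaCa-2. HIST1H2AD and HIST1H2BF differed by −1.07 and 0.73, and HIST1H2AE and HIST1H2BG by −1.23 and −1.56.

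The octamer ATTTGCAT, known as the site of OCT1 in H2B promoters, was searched with CCAAT and TATAAA on both strands in the 300 bases around each start (250 before and 50 after). ATTTGCAT was in 15 of 20 H2B and 10 of 14 H2A promoters of the replication-dependent genes, in 1 of 13 H3 and in none of 13 H4 and 6 H1 promoters, and in 1.77% of all 35116 promoters. CCAAT was in all 20 H2B, 14 H2A, 13 H3 and 6 H1 promoters and in 3 of 13 H4 promoters, beside 34.6% of all. TATAAA was in 43 of 66 promoters of replication-dependent genes and in 4 of 18 of variant genes, beside 11.5% of all. The starts of head-to-head H2A and H2B genes lie 193 to 245 bases apart, so the stretch between them is in both windows. A match in it was counted for both genes, and the H2A and H2B counts are not independent. A match is a run of letters only, and no factor was measured on it.

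Of the H4 genes, HIST1H4J was at 3.83 and 3.61 in parental MIA PaCa-2 and at 2.63 and 1.70 in parental Capan-1 (1.56 ± 0.29, adjusted p = 0.00331, limma), the second Capan-1 array being the lowest. HIST1H4C, the H4 gene with the highest mean signal, was at 7.57 and 7.46 against 6.78 and 6.54 (0.85 ± 0.12, adjusted p = 0.00115). HIST1H4D had a probe past the threshold in each direction, −0.51 ± 0.11 and 0.78 ± 0.12 (adjusted p = 0.00549 and 0.00146), with the probes within 109 bases of each other. Among H3 genes, HIST3H3, the one with the highest mean signal and known from the testis, was at 5.72 and 5.88 against 6.02 and 5.85 (−0.14 ± 0.10, adjusted p = 0.267). Among H1 genes, HIST1H1C, also the one with the highest mean signal, was at 3.27 on both MIA PaCa-2 arrays and at 5.18 and 4.99 on the Capan-1 arrays (−1.81 ± 0.10, adjusted p = 1.94e-05).

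Among the 15 genes with several probes, the largest ranges between probes were those of HIST2H2BF, HIST1H2AC and HIST2H2BE. HIST2H2BF (H2BC18) had 3 probes. The one at chr1:147663744-147663803 (hg18) was at 1.83 on both Capan-1 parental arrays and under that limit on every MIA PaCa-2 array, where it read −6.57 and −7.33. It was at least 227-fold higher in Capan-1 (adjusted p = 1.73e-06, limma), taking for MIA PaCa-2 the lowest signals that its arrays counted as well above background. The probe at chr1:147665228-147665287 was at least 15.5-fold higher in Capan-1 (adjusted p = 4.9e-05), and the third, placed at chr1:148050182-148050241, differed by −1.11 ± 0.09. HIST1H2AC (H2AC6) differed by −4.10 ± 0.12 at chr6:26246801-26246860, where it was at −2.67 and −2.37 in MIA PaCa-2 and 1.58 and 1.57 in Capan-1, but by −1.13 ± 0.32 and −0.13 ± 0.16 at its probes near chr6:26232382-26232499, the 3 probes spanning 14479 bases. The call at −1.13 (adjusted p = 0.0186) was lost without the second MIA PaCa-2 or either Capan-1 parental array. HIST2H2BE differed by −2.62 ± 0.32 at one probe, well above background on 1 of 2 parental MIA PaCa-2 arrays, and by −0.03 ± 0.09 at the other. In HIST1H2BK the differences were −2.52 and −1.69. In these 4 genes the probes differed in size and every probe was below 0. In H2AFJ (−0.06 to 2.13), H3F3B (−0.21 to 1.42), HIST1H4D (−0.51 to 0.78) and HIST1H3H (−0.07 to 0.58) the probes lay on both sides of 0.

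**Figure D4:**
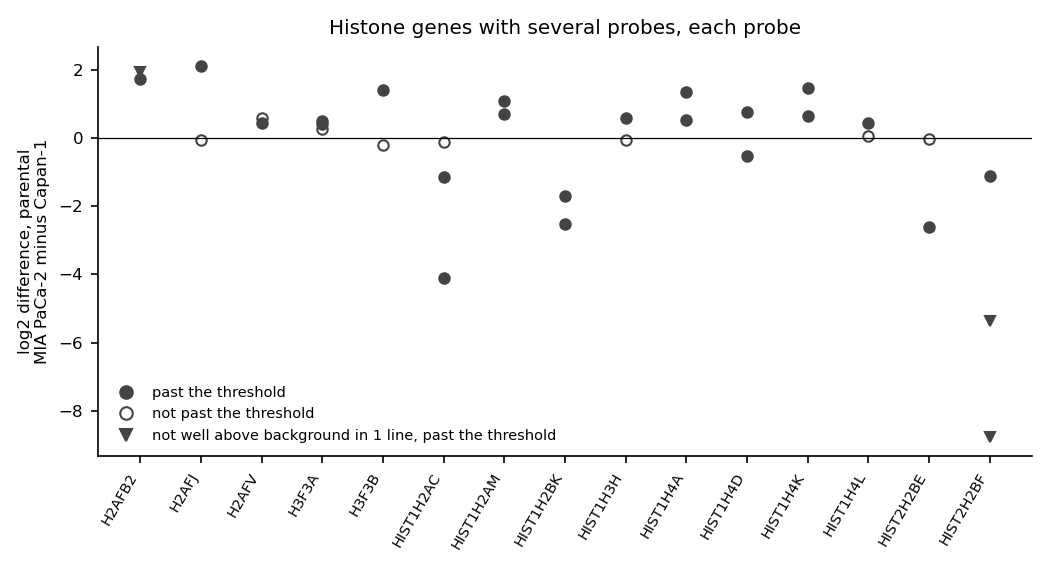
Log2 difference of parental MIA PaCa-2 minus parental Capan-1 for every tested probe of the 15 histone genes with several probes; filled symbols passed the threshold, open ones did not, and triangles mark probes not well above background in 1 line, whose values are no bound. The probes of HIST2H2BF spread from −8.78 to −1.11 and those of HIST1H2AC from −4.10 to −0.13.

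Of 13 variant genes tested between the parental lines, 2 were lower in MIA PaCa-2 and 8 higher, beside 31.9% and 40.2% of all genes. H2AFJ (H2A.J), a variant that differs from H2A mainly in its tail, was at 6.36 and 6.53 in parental MIA PaCa-2 and 4.32 and 4.31 in parental Capan-1 (2.13 ± 0.11, adjusted p = 1.14e-05, limma). Its other probe, 531 bases away in span, differed by −0.06 ± 0.19. H1F0 (H1.0), the linker histone of resting and differentiated cells, was at 2.74 and 2.63 against 4.01 and 4.08 (−1.36 ± 0.08, adjusted p = 2.59e-05). The macroH2A genes, which carry a large extra domain, went opposite ways, H2AFY by 0.85 ± 0.16 (adjusted p = 0.00391) and H2AFY2 by −0.88 ± 0.14 (adjusted p = 0.00154). H2AFX (H2A.X), phosphorylated at DNA breaks, differed by 0.23 ± 0.10 (adjusted p = 0.0858).

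The H2A.Z genes H2AFZ and H2AFV differed by 0.27 ± 0.11 (adjusted p = 0.0611) and 0.46 ± 0.09 (adjusted p = 0.0055). Both encode the variant placed at the starts of active genes. H3F3A and H3F3B encode the same protein, H3.3, which is laid down in S phase and also outside it. H3F3A differed by 0.26 at its brightest probe (adjusted p = 0.115) and by 0.52 and 0.43 at the others (adjusted p = 0.00235 and 0.00552). H3F3B differed by −0.21 at its brightest probe (adjusted p = 0.0959) and by 1.42 ± 0.09 at the other (adjusted p = 2.75e-05).

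The germ cell variants H1FNT, H1FOO and H2AFB2 were low, and by their brightest probes were well above background on 8, 6 and 5 of the 8 arrays. H1FNT was at −2.18 and −2.11 in parental MIA PaCa-2 and −3.67 and −3.66 in parental Capan-1 (1.52 ± 0.14, adjusted p = 0.000167). H1FOO, the oocyte linker histone, was at −3.20 and −3.05 against −5.35 on both arrays, and was well above background on 1 of the 2 Capan-1 arrays (2.22 ± 0.11, adjusted p = 1.05e-05). H2AFB2, of the short H2A variants known from the testis, was at −3.55 and −3.31 in parental MIA PaCa-2 and not well above background in parental Capan-1, at least 3.83-fold lower (adjusted p = 0.000621). H1FX (H1.10) differed by 0.46 ± 0.19 (adjusted p = 0.072).

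After siRNA, 0 variant genes passed the threshold in either line (limma), with unadjusted p-values under 0.05 for 2 lower genes of MIA PaCa-2 and for 1 of Capan-1. In MIA PaCa-2 H1FX differed by −0.43 ± 0.19 (adjusted p = 0.264), H2AFX by −0.32 ± 0.10 (adjusted p = 0.15) and H2AFV by −0.26 ± 0.09 (adjusted p = 0.194). H2AFX was at 3.78 and 3.96 in parental and 3.63 and 3.47 in siRNA cells. H1F0, H2AFJ, H2AFY, H2AFY2 and H2AFZ differed by −0.17, −0.19, −0.20, −0.10 and −0.02, and H3F3A and H3F3B by 0.09 and 0.06. The germ cell variants H1FNT, H1FOO and H2AFB2 differed by 0.12, 0.16 and 0.14. In Capan-1 the H1F0, H1FX and H2AFY differences were −0.05, −0.09 and −0.13, and those of the other variants tested, apart from H1FNT and H2AFY2, lay between 0.01 (H2AFV) and 0.18 (H3F3B).

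**Figure D5:**
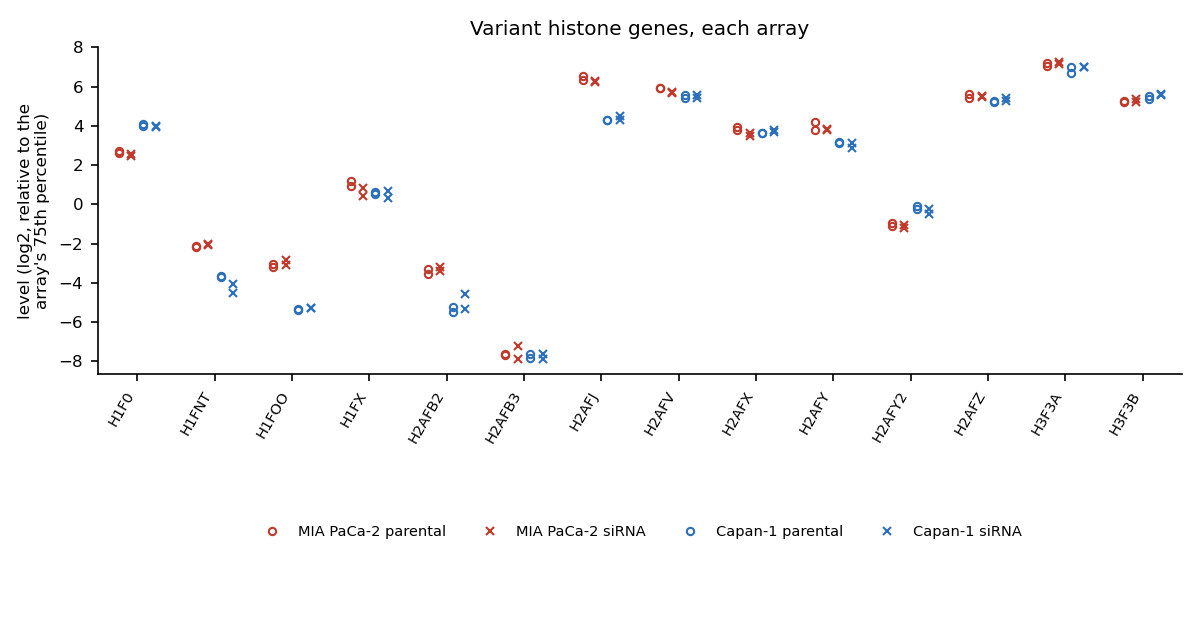
Level of the 14 variant histone genes by brightest probe on each array (log2 relative to the 75th percentile of the array), parental as circles and siRNA as crosses, MIA PaCa-2 in red and Capan-1 in blue. H2AFB3 was not well above background on any array, and in parental cells H2AFJ is higher in MIA PaCa-2 (2.13) and H1F0 lower (−1.36).

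The siRNA-treated arrays, whose levels do not enter the parental differences, gave the lines a second time on the same slides. Both comparisons came from the same fit and share its estimate of the spread, so their p-values are not independent. Of 76 histone genes tested there, 24 were lower in MIA PaCa-2, 22 higher and 2 both ways, beside 30.8% lower and 41.1% higher of all genes. Of 17 H2B genes, 13 were lower and 1 higher, with a median of −1.62. HIST1H2BK was at 0.73 and 0.43 in MIA PaCa-2 and 3.77 and 3.93 in Capan-1 (−3.27 ± 0.13, adjusted p = 4.28e-06, limma), and HIST1H2BE differed by 0.61 ± 0.10 (adjusted p = 0.00225). HIST1H2BF differed by 0.48 ± 0.22 and did not pass (adjusted p = 0.0887).

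Genes that act on histone mRNA and on histones were read beside them, from lists fixed by symbol. Of 19 tested genes of histone mRNA transcription and 3′ processing, 0 passed after siRNA in MIA PaCa-2, and of 18 tested in Capan-1 0 passed (limma). Unadjusted p was under 0.05 at any probe for 1 lower and 5 higher in MIA PaCa-2 and 3 lower and 1 higher in Capan-1. Of all genes, by the brightest probe only, 10.6% were lower and 11% higher in this way in MIA PaCa-2, and 6.99% and 6.07% in Capan-1. NPAT, which switches on histone genes at the entry into S phase, was at −2.47 and −2.54 in parental and −2.07 and −2.16 in siRNA MIA PaCa-2 cells (0.39 ± 0.10, adjusted p = 0.103), and differed by −0.26 ± 0.10 in Capan-1 (adjusted p = 0.361). CASP8AP2, its partner at the histone loci, differed by 0.24 and 0.14. SLBP, which binds the stem-loop, differed by −0.03 and −0.11. LSM10, of the U7 particle that cuts the mRNA end, differed by 0.21 and 0.31 (adjusted p = 0.207 and 0.251). LSM11, of the same particle, was well above background on both siRNA arrays and 1 parental array of MIA PaCa-2 and differed by 0.63 ± 0.35 there (adjusted p = 0.352).

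Between the parental lines 3 of 18 genes of this list were lower in MIA PaCa-2 and 7 higher, beside 31.9% and 40.2% of all genes. SLBP was at 3.52 and 3.62 in MIA PaCa-2 and 2.42 and 2.44 in Capan-1 (1.14 ± 0.10, adjusted p = 0.000123). CASP8AP2 was higher by 1.66 ± 0.18 (adjusted p = 0.00033).

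Of 31 chaperone and deposition genes, unadjusted p was under 0.05 at any probe for 4 lower and 1 higher in MIA PaCa-2 (limma). In Capan-1 these were 3 lower and 0 higher. The shares of all genes, by the brightest probe, were 10.6% and 11% in MIA PaCa-2 and 6.99% and 6.07% in Capan-1. After adjustment 0 passed in Capan-1. In MIA PaCa-2 1 gene was lower after siRNA and none higher, beside 1.63% and 1.6% of all genes. The gene was MMS22L, which works with TONSL on newly made chromatin, at 1 of its probes, which was at −1.09 and −1.12 in parental and −2.41 and −2.63 in siRNA cells (−1.41 ± 0.12, adjusted p = 0.0129, limma), while its brightest probe gave −0.13 ± 0.17 (adjusted p = 0.719). Its call was lost without either Capan-1 parental array (adjusted p = 0.0524). In Capan-1 the same MMS22L probe differed by −1.31 after siRNA, in the same direction, but did not pass (adjusted p = 0.0892, limma). The brightest MMS22L probe differed by −0.03 there (adjusted p = 0.96, limma). Between the parental lines 6 genes of this list were lower in MIA PaCa-2 and 18 higher, beside 31.9% and 40.2% of all genes. Of 23 S phase genes, 1 passed in MIA PaCa-2 after siRNA, as higher, beside 1.6% of all genes. Unadjusted p was under 0.05 for 4 lower and 3 higher (limma). The median in MIA PaCa-2 was −0.12, with 16 genes below 0. Over all genes with signal it was 0.014, with 8638 of 18161 below 0. In Capan-1 0 passed (unadjusted p under 0.05 for 2 lower and 1 higher, limma), with a median of −0.14 and 21 genes below 0. Over all genes with signal in Capan-1 the median was 0.0026, with 8988 of 18178 below 0. The S phase gene past the threshold in MIA PaCa-2 was CCNE1, the cyclin of the G1 to S transition. It was at 2.65 and 2.69 in parental and 3.42 and 3.39 in siRNA cells (0.74 ± 0.08, adjusted p = 0.0228, limma). This call was lost when any 1 of the arrays but the second siRNA array of MIA PaCa-2 was left out. In Capan-1 CCNE1 was at 2.98 and 2.89 in parental and 3.15 and 3.27 in siRNA cells (0.27 ± 0.08, adjusted p = 0.297, limma).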

How the data were processed

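RNA of both cell lines was measured on 8 one-color Agilent arrays. The authors scanned them and deposited for each spot an intensity with background already subtracted by Agilent Feature Extraction 9.5.3 (a version from the submitters' processing notes), with flags for outliers and for signal well above background. They also deposited a table of log2 values, which are the log2 of the same intensity with no scaling between arrays. Probe coordinates are on hg18, per the file headers.

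Spots flagged as outliers were dropped, log2 intensities averaged per probe and each array's 75th percentile subtracted. Each histone probe lies on 1 spot. Group means of all 8 arrays were estimated in R 4.3.3 by limma 3.58.1 (lmFit and eBayes, two-sided), on probes that rose well above background on every array of 1 or both groups compared, with Benjamini-Hochberg adjustment over all such probes and a threshold of 0.05. The methods' 99% interval of the parental arrays, in a window of 1000 probes, was an alternative. The others were normexp (offset 50), quantile or no scaling, outlier spots, the log2 table, the filters on dim probes, each line alone, the replicate block, an intensity trend and each array left out. With 2 arrays against 2, an exact permutation test cannot go below p = 0.33, so none was run. Where a line was not well above background, the fold is a lower bound against the lowest signal counted as such. On simulated data limma recovered 63% of 200 probes changed by 1 in MIA PaCa-2, 62% in Capan-1 and 59% between parental lines, out of 23711, 23367 and 24964 probes. TUT7 and ZCCHC6, names of 1 gene, were counted once. All 100 histone probes matched a current symbol in RefSeq, and promoters are from RefSeq on GRCh38.p14.

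The members, the gene lists and the tests were chosen with earlier results of these data known. Genes named are those past the threshold after siRNA, the 8 largest falls and rises between parental lines with signal on all 4 arrays, the 3 largest falls and rises per line with non-overlapping arrays, every variant gene, the brightest replication-dependent gene of each class and the main regulators. Genes with several probes, the 4 probes of the shared run, HIST1H2BE, HIST1H2BF and the head-to-head pairs were named after their values were seen, and the siRNA arrays of both lines were compared after that too. Tables were built with pandas 2.3.3, numpy 2.4.6 and scipy 1.17.1, and figures drawn with matplotlib 3.10.9, all under Python 3.11.15.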

Additional observations from a re-analysis of the deposited data

How the results depend on the processing

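The counts between the parental lines stayed within 1.5 times under every alternative run, 22 to 24 histone genes lower and 22 to 35 higher in MIA PaCa-2, and none of the 75 differences past the threshold, taken probe by probe, turned its direction. Of their 1272 values under the alternatives 91 missed the threshold, 13 of 18 for HIST3H2A, 11 of 18 for CCNE1 and 5 of 18 for MMS22L after siRNA in MIA PaCa-2. The number of histone genes lower there was 1 and became 0 without scaling, without the filter on dim probes, with each line alone, with the replicate block, by the methods' 99% interval and with each array left out (0 to 0), 2 with normexp, which also called 1 higher, and 3 with an intensity trend. Leaving out an array gave 0 to 1 lower for the difference of the responses and 0 to 1 higher in Capan-1. The replicate numbers did not pair the arrays (correlation of deviations 0.02 for MIA PaCa-2 and 0.04 for Capan-1), and the block changed no other count over all histone genes by more than 1.5 times.

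The medians moved by more than the spread between arrays in these cases. Without scaling, replication-dependent genes were at −0.19 (MIA PaCa-2) and 0.047 (Capan-1) after siRNA, and variants at −0.32 and −0.14, where all genes shifted by −0.22 and −0.16. Variants were at −0.17 in MIA PaCa-2 with signal on all 8 arrays, at −0.065 in Capan-1 and 0.14 between parental lines with quantile scaling, and at 0.46 between parental lines by the mean over probes. With 1 array left out, replication-dependent genes ranged from −0.049 to 0.10 in MIA PaCa-2, 0.11 to 0.27 in Capan-1 and 0.033 to 0.21 between parental lines, and variants from −0.17 to −0.017, −0.0204 to 0.087 and 0.17 to 0.41. The precision is limited by 1 spot a probe and 2 arrays a group.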
